A study of Mus musculus with 6 samples.

Results

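The genes described here are 27 genes of the GABA system: 9 subunits of the GABA-A receptor, 2 subunits of the GABA-B receptor, 3 genes for making and packaging GABA, 3 for its uptake and breakdown, 2 for the scaffold of inhibitory synapses, 2 chloride transporters, and 6 genes used to recognise inhibitory interneurons. They were chosen by name, as a list of the GABA system, from a table of 55471 genes. All 27 passed the filter on low counts that left 17981 genes to be tested. These genes and the wider list below were chosen with earlier results of these data known. Their shares, set beside those of all genes below, are therefore not those of an independent list. They were compared between hippocampi of Control and CBP-ifKO mice, with the GABA-A receptor subunits set beside the genes of interneurons. These subunits are not particular to pyramidal cells, and which cells expressed each gene was not measured. In CBP-ifKO mice a floxed Crebbp gene, which encodes the histone acetyltransferase CBP, is recombined by creERT2. The study describes the remaining product as a truncated protein without acetyltransferase activity. The recombinase creERT2 is activated by tamoxifen, and the Camk2a promoter drives it in forebrain excitatory neurons. Interneurons do not use this promoter, so that in these mice they were meant to keep their CBP.

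There were 3 libraries of each genotype, from C57BL/6 mice aged 3 to 6 months, and both groups had received tamoxifen 5 times. The protocol describes the Control animals as littermates without creERT2, whereas the description field of the Control samples names Camk2a_creERT2. Esr1, part of which the recombinase contains, was at 5.65 to 6.29 CPM (counts divided by the scaled library size) in the Control libraries and at 63.6 to 69.4 CPM in the CBP-ifKO libraries. The labels do not state whether animals were pooled. For unstimulated mice of this genotype the study's methods describe 1 experiment on samples pooled from 3 females and 2 on single animals, and which of these gave the libraries is not stated in the labels. The p-values therefore measure the spread between these samples, which, if animals were pooled, may be less than that between single animals. Whole hippocampus was measured, so fewer cells of a type and less RNA per cell cannot be told apart.

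GABA is the main inhibitory transmitter of the adult brain. It is made from glutamate by the decarboxylases GAD67 and GAD65 (Gad1 and Gad2), loaded into vesicles by VGAT (Slc32a1), and released by interneurons onto pyramidal and granule cells. There it opens GABA-A receptors, chloride channels built of 5 subunits, most often alpha, beta and gamma ones, and activates GABA-B receptors, which act through G proteins. The subunits differ by place: alpha-5 is known for receptors outside the synapse in hippocampal pyramidal cells, and delta for such receptors in dentate granule cells, whereas alpha-2 is typical of synapses.

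Total counts ran from 10199008 to 14950257 per library. Crebbp reached 156.4 to 208.6 CPM in Control and 87.1 to 108.6 CPM in CBP-ifKO, with no overlap between the groups, and the counts, which cover all its exons in all cells, do not show how far it was lost in excitatory neurons. Among all genes tested, 897 (4.99%) were lower in CBP-ifKO at an adjusted p under 0.05 and 252 (1.40%) were higher (edgeR quasi-likelihood test, Benjamini-Hochberg adjustment over all genes tested, as for every adjusted p below). With library totals as the only scaling the split was 667 lower and 514 higher, and with trends on GC content and gene length removed it was 731 and 383. Of the 6 markers of excitatory neurons 1 was called, Nrgn, and the summed level of the list overlapped between the groups (2752 to 3146 CPM in Control, 2772 to 3184 CPM in CBP-ifKO). Camk2a, whose promoter drives the recombinase, gave most of that sum, at 1693 to 2092 CPM in Control and 1948 to 2205 CPM in CBP-ifKO. The sum thus says little of the other markers. Among these, Neurod6 was at 91.6% of the Control mean and Neurod2 at 115.1%, each without overlap and not called.

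Of the 27 genes, 3 fell in CBP-ifKO and none rose. Gabra5 and Gabrd, the subunits known from receptors outside the synapse, fell to 71.4% and 71.2% of the Control mean, and Slc32a1, the vesicular GABA transporter, to 77.2%. The other 24 did not pass the test. The 3 genes are 11.1% of the 27, against 4.99% of all genes tested that were called lower, and against 7.46% (753) of the 10096 genes with a mean of at least 10 CPM, as all 27 have. Their number depended on single libraries: leaving out replicate 3 of Control, or replicates 2 or 3 of CBP-ifKO, left 1 of the 27 called, which was Gabra5 each time, and 2 to 4 without each of the others.

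Small differences in the same direction were common in the list. The log2 fold change (CBP-ifKO over Control) was below 0 for 24 of the 27 genes, and its median was -0.12, where over all genes tested 50.7% were below 0 and the median was -0.003. Every CBP-ifKO library lay below every Control library for 13 of the 27 (48.1%), against 13.9% of all genes tested and 16.9% of those with a mean of at least 10 CPM. The count below 0 moved with the scaling, from 24 to 19 of 27 when only library totals were used, so the direction of the genes nearest to 0 is not settled. Overlap, here and below, was judged on the scaled levels and was not recomputed under other scalings.

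**Figure D1:**
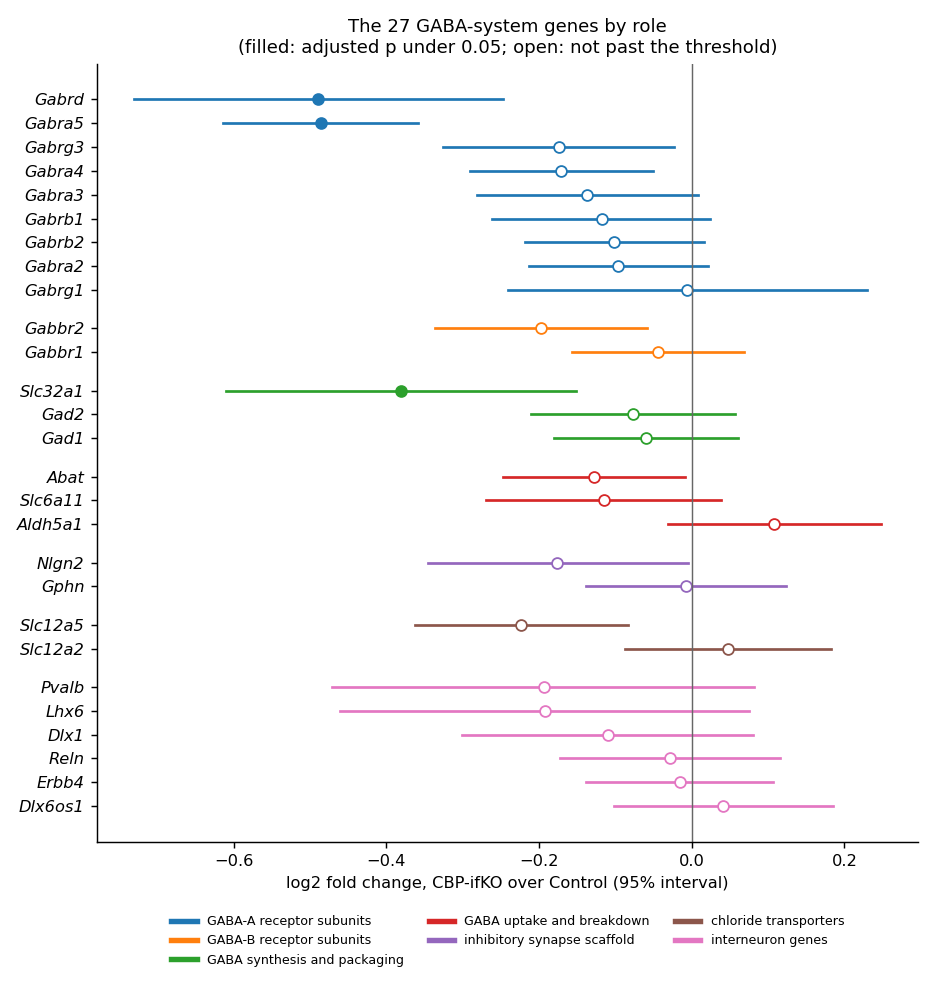
Log2 fold change (CBP-ifKO over Control, x axis, no unit) of each of the 27 genes, grouped by role, with 95% intervals from the edgeR fit as lines, not adjusted for the number of genes. Filled points, at -0.49 (Gabrd), -0.49 (Gabra5) and -0.38 (Slc32a1), passed an adjusted p of 0.05, and 24 of the 27 points lie left of 0.

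The 9 GABA-A subunits comprised alpha-2 to alpha-5, beta-1, beta-2, gamma-1, gamma-3 and delta. Of these, 2 were called lower and none higher, and the median log2 fold change was -0.14. All 9 values were below 0 in the edgeR fit, although that of Gabrg1 (-0.006) turned to at most 0.04 under other scalings. In 7 of the 9 the groups did not overlap (77.8%, beside 13.9% of all genes).

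Gabra5 (ENSMUSG00000055078, alpha-5) showed the clearest change of the 27. Its level was 203.4, 218.8 and 207.4 CPM in the 3 Control libraries, taken in the order of their replicate numbers here and below, against 153.2, 155.3 and 141.0 CPM in CBP-ifKO. The lowest Control library was thus well above the highest CBP-ifKO library. The mean ± SD of 3 libraries went from 209.9 ± 8.0 to 149.9 ± 7.70 CPM, which is -0.49 on the log2 scale (standard error 0.061, 95% interval -0.61 to -0.36, edgeR adjusted p 0.000169). It was called under each of the 16 alternative settings, with log2 fold changes between -0.51 and -0.43. The gene lies on the minus strand of chromosome 7 (GRCm38, 57407672 to 57510059), and 4.98% of its exon bases are shared with the antisense gene Gm9962, which had 4 to 21 counts per library.

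GABA-A subunit genes lie in clusters, and Gabrg3 (gamma-3, 56716465 to 57387188, minus strand), beside Gabra5 on chromosome 7, had a log2 fold change of -0.17 (standard error 0.072, edgeR adjusted p 0.168). In the cluster on chromosome 5, Gabrg1, Gabra2, Gabra4 and Gabrb1 had log2 fold changes from -0.17 to -0.01, and none was called. Whether the fold changes of neighbours differ was not tested.

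Gabrd (ENSMUSG00000029054, delta, chromosome 4, 155384980 to 155398112) was a low-level transcript. Its level was 17.0, 22.0 and 20.2 CPM in Control and 13.8, 14.7 and 13.7 CPM in CBP-ifKO. The groups did not overlap, and the spread was larger among the Control libraries. Its mean ± SD of 3 libraries went from 19.7 ± 2.53 to 14.1 ± 0.522 CPM (-0.49 on the log2 scale, standard error 0.114, 95% interval -0.73 to -0.25, edgeR adjusted p 0.0165). The call was lost when any library but Control replicate 1 was left out: the adjusted p became 0.0534 without Control replicate 2, 0.0810 without Control replicate 3, and 0.0506, 0.0551 and 0.0847 without CBP-ifKO replicates 1, 2 and 3, with log2 fold changes between -0.52 and -0.39.

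Gabra4 (alpha-4), which is known to pair with delta in granule cells, did not pass the threshold. It measured 158.5, 163.2 and 159.4 CPM in Control and 142.9, 145.3 and 139.1 CPM in CBP-ifKO. The groups were apart and each was tight, and the difference was small (log2 fold change -0.17, standard error 0.057, edgeR adjusted p 0.0854). It was called once trends on GC content and length had been removed (-0.21, edgeR adjusted p 0.0339). Its 5′ end overlaps that of Gabrb1 on the other strand, over 0.756% of its exon bases.

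The other 6 subunits had log2 fold changes between -0.17 (Gabrg3) and -0.01 (Gabrg1) and were not called. Gabra2 (alpha-2), at 303.1 to 313.4 CPM in Control and 281.8 to 302.3 CPM in CBP-ifKO, had -0.10 (95% interval -0.21 to 0.02). Gabra3 (alpha-3) had -0.14, Gabrb1 (beta-1) -0.12 and Gabrb2 (beta-2) -0.10. Without Control replicate 2, whose level of Gabrb1 was the lowest of the 6 libraries, Gabrb1 was called (-0.19, edgeR adjusted p 0.0311). For Gabrg1 the interval ran from -0.24 to 0.23, so that neither a fall nor a rise of this size can be told from no change. Gabra6, Gabre, Gabrp and Gabrr1 to Gabrr3 had at most 10 counts in any library and were not tested.

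**Figure D2:**
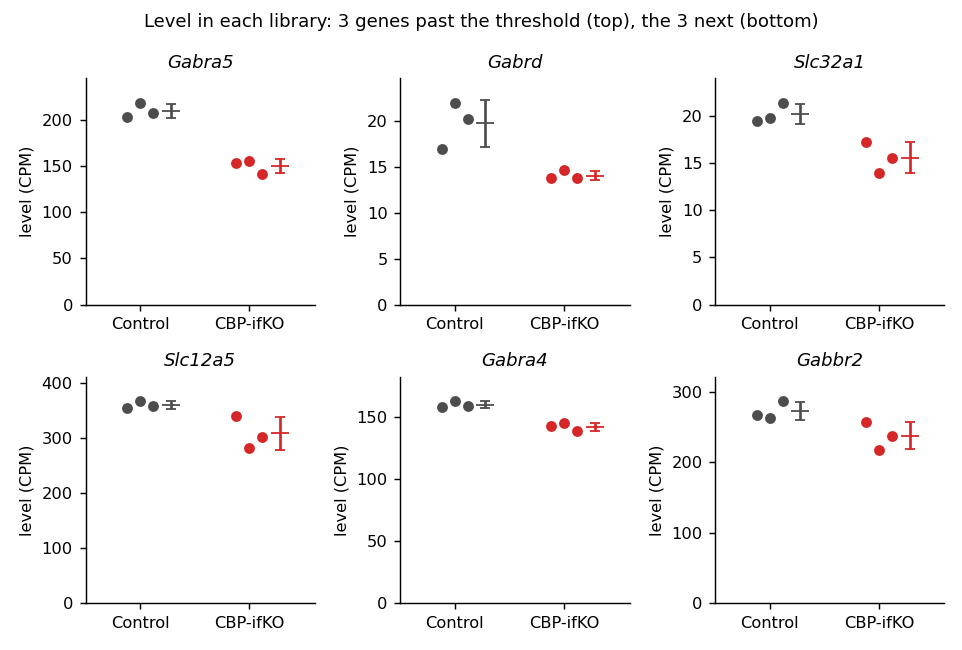
Level in CPM (y axis, from 0) of the 3 genes called (top) and the 3 nearest to the threshold outside it (bottom), with 1 point per library and the mean ± SD (n = 3) beside the points of each genotype. In each of the 6 genes the 3 CBP-ifKO points lie below the 3 Control points, by the widest margin in Gabra5.

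Levels per length were used to compare subunits with each other (CPM divided by exon length in kilobases). No level, share or ratio per kb was adjusted for GC content. Among the 4 alpha subunits of the list Gabra5 was the most abundant in Control, at 70.6 ± 2.69 CPM per kb (SD, n = 3), before Gabra2 at 40.5 ± 0.733, Gabra4 at 26.4 ± 0.411 and Gabra3 at 15.1 ± 0.556. In CBP-ifKO the order was the same, with Gabra5 at 50.4 ± 2.59 and Gabra2 at 37.9 ± 1.46 CPM per kb. Of the transcripts of these 4 per kb, Gabra5 made up 45.6%, 47.2% and 45.9% in the Control libraries and 40.8%, 40.5% and 39.1% in the CBP-ifKO libraries. The shares sum to 100%, so those of the other subunits have to rise when that of Gabra5 falls. The ratio of Gabra5 to Gabra2, which does not depend on library scaling, was 1.68 to 1.86 in Control and 1.29 to 1.38 in CBP-ifKO, and that to Gabra4 was 2.63 to 2.74 and 2.07 to 2.19.

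Of the transcripts per kb of Gabrd, Gabrg1 and Gabrg3, Gabrd made up 38.1% to 47.1% in Control and 34.9% to 36.8% in CBP-ifKO. The ratio of Gabrd to Gabra4, its partner in granule cells, was 0.227, 0.285 and 0.269 in Control and 0.204, 0.213 and 0.209 in CBP-ifKO, so that the groups came close without overlap. With 3 libraries against 3, the smallest two-sided p that an exact permutation test of such a ratio allows is 0.1, so no p is given.

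**Figure D3:**
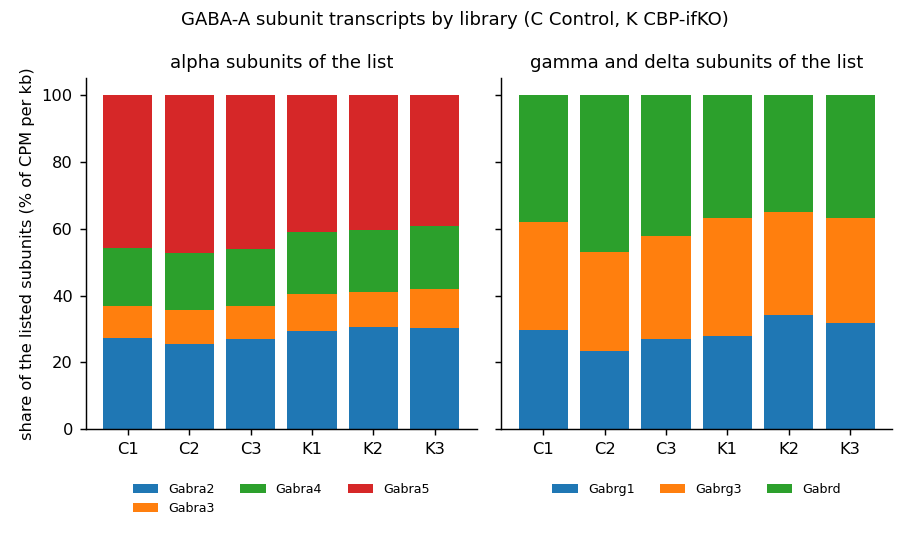
Share of each subunit among the alpha subunits of the list (left) and among its gamma and delta subunits (right) in every library (y axis, percent of CPM per kb; C1 to C3 are the Control replicates and K1 to K3 the CBP-ifKO replicates). Gabra5 takes 45.6% to 47.2% of the alpha bars in Control and 39.1% to 40.8% in CBP-ifKO, and Gabrd 38.1% to 47.1% and 34.9% to 36.8% of the bars on the right.

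Markers of the cells that carry these subunits moved as well. Of the 5 CA1 pyramidal cell markers, 4 were called lower, none was at 0, and their summed level was 349.2 to 361.2 CPM in Control and 221.6 to 235.8 CPM in CBP-ifKO. Wfs1, Fibcd1 and Mpped1 were called under all 16 alternatives, and Pou3f1 (-0.39) under 7 of them, and its value over the 16 ranged from -0.48 to -0.09. Of the 5 CA3 pyramidal cell markers, 1 was called lower (Cpne4, -0.42, under all 16 alternatives), and the sum was 299.3 to 308.8 CPM in Control and 247.1 to 262.9 CPM in CBP-ifKO, without overlap. Of the 7 dentate granule cell markers, 3 were called lower (C1ql2, Trpc6 and Tdo2), whereas Prox1, the transcription factor that defines granule cells, had a log2 fold change of 0.22 (edgeR adjusted p 0.110), and the sum was 424.6 to 450.5 CPM in Control and 374.3 to 402.2 CPM in CBP-ifKO. The part of these changes in the values of Gabra5 and Gabrd was not tested.

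The 2 subunits of the GABA-B receptor, which works only as a pair of both, were not called. Gabbr1, the subunit that binds GABA, was at 602.6 to 623.1 CPM in Control and 581.9 to 617.6 CPM in CBP-ifKO, which overlap (log2 fold change -0.04, interval -0.16 to 0.07). Gabbr2, the subunit that couples to the G protein, was at 266.8, 262.9 and 287.0 CPM in Control and 257.1, 218.0 and 237.9 CPM in CBP-ifKO. CBP-ifKO replicate 1 lay close under the Control values and the other 2 further below (log2 fold change -0.20, standard error 0.066, edgeR adjusted p 0.0868). Without that library Gabbr2 was called (-0.26, edgeR adjusted p 0.0476).

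Of 5 genes whose products attach to the GABA-B receptor, taken from a list of further GABA genes, 2 fell. Ajap1, a partner of the receptor at the membrane, was at 33.2, 30.3 and 33.3 CPM in Control and 21.7, 19.1 and 20.9 CPM in CBP-ifKO. This was a fall to 63.7% without overlap (log2 fold change -0.66, standard error 0.092, edgeR adjusted p 0.000428), called under all 16 alternatives. Kctd16, an auxiliary subunit that shapes the receptor's response, was at 70.0 to 76.4 CPM in Control and 56.9 to 65.5 CPM in CBP-ifKO (-0.29, standard error 0.072, edgeR adjusted p 0.0234). Its call was lost without replicates 1 or 3 of Control (edgeR adjusted p 0.0724 and 0.117) or replicates 2 or 3 of CBP-ifKO (0.139 and 0.127), and 10.4% of its exon bases are shared with a gene on the other strand. Kctd8, Kctd12 and Kctd12b were not called.

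The genes that make and package GABA gave unequal values. Gad1 and Gad2, the decarboxylases, did not pass the test, with log2 fold changes of -0.06 (95% interval -0.18 to 0.06) and -0.08 (-0.21 to 0.06). Gad1 was at 254.3 to 270.3 CPM in Control and 240.0 to 261.1 CPM in CBP-ifKO, and Gad2 at 133.7 to 150.6 and 130.1 to 138.9 CPM, so that both overlapped. The intervals of both thus exclude a fall as large as the estimate for Slc32a1. The interval of Slc32a1 itself, -0.61 to -0.15, overlaps both, and the difference between these genes was not tested.

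Slc32a1 (ENSMUSG00000037771, chromosome 2, 158610767 to 158615748) was at 19.4, 19.8 and 21.4 CPM in Control and 17.3, 14.0 and 15.6 CPM in CBP-ifKO. The groups did not overlap, with CBP-ifKO replicate 1 nearest to Control. Its mean ± SD of 3 libraries went from 20.2 ± 1.07 to 15.6 ± 1.63 CPM, or by -0.38 on the log2 scale (standard error 0.108, 95% interval -0.61 to -0.15, edgeR adjusted p 0.0450). This call was fragile. It was lost in DESeq2 (adjusted p 0.116) and, with a log2 fold change of -0.15, after removal of trends on GC content and length (edgeR adjusted p 0.486), Slc32a1 having at 61.9% the highest GC content of the 27. It was also lost without any single library but CBP-ifKO replicate 1, with an adjusted p of 0.0638, 0.0533 and 0.198 without Control replicates 1, 2 and 3, and of 0.214 and 0.149 without CBP-ifKO replicates 2 and 3. Of its exon bases 24.9% are shared with the antisense gene Gm14205, which had 0 counts in every library.

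The ratio of Slc32a1 to Gad1 per kb was 0.200 to 0.226 in Control and 0.146 to 0.189 in CBP-ifKO, whereas that of Gad1 to Gad2 overlapped (1.30 to 1.56 and 1.40 to 1.45). Both are given without a test, for the reason above. Neither ratio was adjusted for GC content, which is 61.9% in Slc32a1 and 47.3% in Gad1.

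The stretch before the start of transcription is shown for the called genes that have an entry in the RefSeq table, Gabra5 and Slc32a1, and for Aldh5a1, which had the highest fold change of the 27. CBP is named for its binding to CREB, a factor that binds TGACGTCA and the shorter TGACG, which is read as CGTCA on the other strand. In the 250 bases before the start (RefSeq, GRCm38.p6), capitals mark TGACG or CGTCA. Of 32851 promoters, 508 (1.55%) held TGACGTCA, which contains both shorter forms, and 17.8% held TGACG on either strand. Of 24 of the 27 genes with an entry, none held the longer motif and 3 held the shorter one: Aldh5a1, Dlx6os1 and Gad2. Gabra5 (chr7:57510060-57510309, minus strand) and Slc32a1 (chr2:158610508-158610757, plus strand) held neither, which says only that these letters are not in these windows, and Aldh5a1 (chr13:24937662-24937911, minus strand) held 1 match. The last 2 windows overlap exons of noncoding genes on the opposite strand.
Gabra5: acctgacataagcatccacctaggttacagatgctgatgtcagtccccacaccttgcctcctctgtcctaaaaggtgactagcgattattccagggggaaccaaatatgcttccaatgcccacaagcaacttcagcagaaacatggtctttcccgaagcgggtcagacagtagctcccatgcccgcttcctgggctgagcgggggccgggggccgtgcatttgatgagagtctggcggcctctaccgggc
Slc32a1: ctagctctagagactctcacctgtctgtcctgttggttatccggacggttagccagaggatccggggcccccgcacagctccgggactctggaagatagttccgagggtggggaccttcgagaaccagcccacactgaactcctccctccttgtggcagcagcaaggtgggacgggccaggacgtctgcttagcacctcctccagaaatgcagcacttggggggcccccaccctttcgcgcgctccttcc
Aldh5a1: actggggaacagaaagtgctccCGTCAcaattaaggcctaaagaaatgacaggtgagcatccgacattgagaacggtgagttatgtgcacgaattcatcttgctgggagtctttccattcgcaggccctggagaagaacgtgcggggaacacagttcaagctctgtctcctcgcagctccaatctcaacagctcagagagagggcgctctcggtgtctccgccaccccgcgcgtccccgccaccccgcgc

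The 3 genes of GABA uptake and breakdown did not pass the test. Slc6a11, the transporter GAT3, mainly found in astrocytes, was at 76.8 to 91.1 CPM in Control and 73.9 to 77.8 CPM in CBP-ifKO (log2 fold change -0.12). Abat, the transaminase that degrades GABA, was at 232.8 to 241.8 CPM in Control and 209.4 to 226.5 CPM in CBP-ifKO, without overlap (-0.13, edgeR adjusted p 0.200). Aldh5a1, the dehydrogenase of the following step, was the only 1 of the 27 whose groups stood apart with CBP-ifKO on the higher side, at 82.5 to 92.3 CPM in Control and 93.1 to 99.1 CPM in CBP-ifKO (0.11, edgeR adjusted p 0.374), and 17.7% of its exon bases are shared with genes on the other strand. The astrocyte markers, beside which Slc6a11 can be read, had summed levels of 4855 to 5773 CPM in Control and 5101 to 5242 CPM in CBP-ifKO, and none of 7 was called. Slc1a2 gave most of that sum, at 3568 to 4437 CPM in Control and 3899 to 3946 CPM in CBP-ifKO. The sum thus says little of the other markers. Of the 7, only Slc1a3 had groups apart, at 611.9 to 638.7 CPM in Control and 555.4 to 596.4 CPM in CBP-ifKO (-0.13, edgeR adjusted p 0.162).

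At the inhibitory postsynapse, Gphn and Nlgn2 were not called. Gphn encodes gephyrin, the scaffold that holds GABA-A receptors at synapses, and was at 106.9 to 112.0 CPM in Control and 104.9 to 114.1 CPM in CBP-ifKO (log2 fold change -0.01, 95% interval -0.14 to 0.12). Nlgn2, the adhesion molecule neuroligin-2 of inhibitory synapses, was at 82.4 to 100.6 CPM in Control and 75.5 to 87.9 CPM in CBP-ifKO (-0.18, edgeR adjusted p 0.221). Its value was 0.04 after removal of trends on GC content and length, and it was called without Control replicate 2 (-0.25, edgeR adjusted p 0.0405). Of 13 further genes of this synapse that were tested, 1 was called: Insyn1, which encodes a protein of inhibitory synapses, was at 65.3 to 82.4 CPM in Control and 50.0 to 60.6 CPM in CBP-ifKO (-0.39, standard error 0.091, edgeR adjusted p 0.0155). Without CBP-ifKO replicate 2 its adjusted p was 0.116, and after removal of trends on GC content and length it was 0.235.

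The chloride transporters set the direction of the current through GABA-A receptors. Slc12a5, the neuronal exporter KCC2, was at 353.8, 366.9 and 357.0 CPM in Control and 340.3, 282.2 and 301.4 CPM in CBP-ifKO. CBP-ifKO replicate 1 stood closer to the Control libraries than to the other 2 of its group. The log2 fold change was -0.22 (standard error 0.066, edgeR adjusted p 0.0535), just outside the threshold. Slc12a5 was called by DESeq2 (adjusted p 0.0455) and limma-voom (adjusted p 0.0383), and without CBP-ifKO replicate 1 (-0.30, edgeR adjusted p 0.0141), while after removal of trends on GC content and length its log2 fold change came closest to 0 among the alternatives, at up to -0.05. Slc12a2, the importer NKCC1, was at 113.4 to 114.5 CPM in Control and 109.8 to 124.8 CPM in CBP-ifKO (0.05, interval -0.09 to 0.18). The ratio of Slc12a5 to Slc12a2 per kb was 4.55, 4.75 and 4.57 in Control and 4.54, 3.32 and 3.74 in CBP-ifKO, where replicate 1 differed from the lowest Control value by little. This ratio was not adjusted for GC content, which is 58.3% in Slc12a5 and 44.2% in Slc12a2. None of 10 further genes of chloride handling was called.

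The 9 genes of interneurons, which are Gad1, Gad2, Slc32a1 and 6 identity genes, had a median log2 fold change of -0.08, beside -0.14 in the 9 GABA-A subunits and -0.003 over all genes. In each group of 9 a minority was called, 1 among the interneuron genes (11.1%) and 2 among the subunits (22.2%), beside 4.99% of all genes and 7.46% of those with a mean of at least 10 CPM called lower. The groups did not overlap, with CBP-ifKO lower, in 3 of 9 interneuron genes (33.3%) and in 7 of 9 subunits (77.8%), beside 13.9% of all genes and 16.9% of those with a mean of at least 10 CPM. No test was made of the difference between these sets, which share their libraries and hold few genes. Their medians moved with the scaling: with library totals only they were -0.031 and -0.091.

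**Figure D4:**
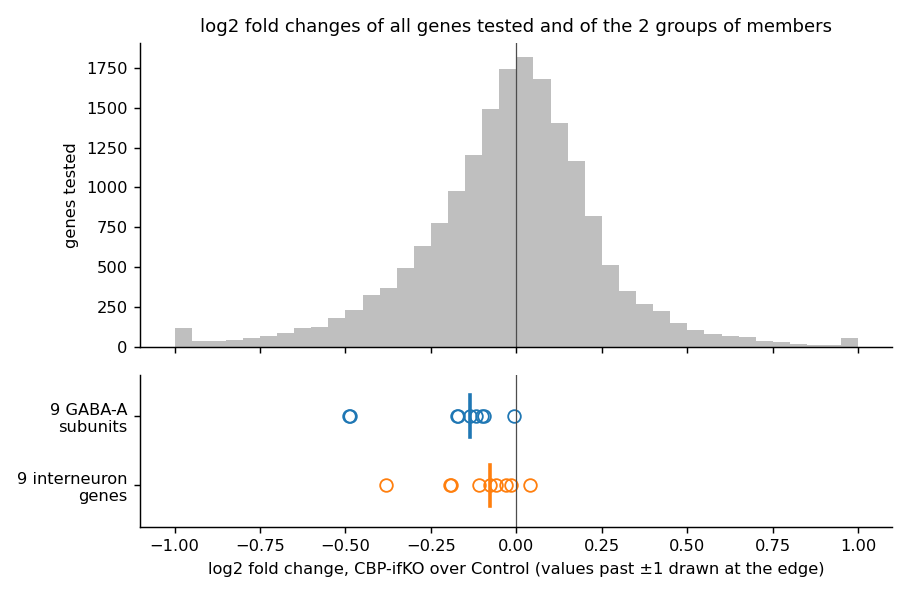
Histogram of the log2 fold changes of all 17981 genes tested (upper panel, y axis in genes) above those of the 9 GABA-A subunits and the 9 interneuron genes (lower panel, 1 circle per gene, with the median as a vertical bar). Both medians, -0.14 and -0.08, lie left of 0, and in each row the values furthest left are the called genes.

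None of the 6 identity genes was called. Pvalb, the calcium-binding protein of fast-spiking basket cells, was at 21.6, 25.2 and 17.2 CPM in Control and 18.9, 20.7 and 16.3 CPM in CBP-ifKO. The libraries of each group spread widely and overlapped, and the interval ran from -0.47 to 0.08 on the log2 scale. Lhx6, the transcription factor of interneurons from the medial ganglionic eminence, had -0.19 (interval -0.46 to 0.08). Dlx1, a homeobox factor of interneurons, had -0.11, with 22.5 to 22.8 CPM in Control and 20.8 to 21.3 CPM in CBP-ifKO. The groups were thus apart, although the interval of the fit ran from -0.30 to 0.08. Dlx6os1, the long noncoding RNA of the Dlx5 and Dlx6 locus, had 0.04 (interval -0.10 to 0.18).

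Erbb4, the neuregulin receptor that the hippocampus expresses mainly in interneurons, had a log2 fold change of -0.02 (interval -0.14 to 0.11), and Reln, the secreted protein reelin, -0.03 (interval -0.17 to 0.12). Gad1 and Erbb4 had the smallest standard errors among the 9 interneuron genes, and values below -0.181 lie outside the intervals of both. The 6 of the 27 that serve as markers shared by interneurons (Gad1, Gad2, Slc32a1, Dlx1, Dlx6os1 and Lhx6) had a summed level of 510.5 to 514.2 CPM in Control and 472.1 to 500.4 CPM in CBP-ifKO, without overlap, and 1 of them, Slc32a1, was called. This gap in the sum depends on the scaling. The TMM scaling factors were 0.968 to 0.995 in Control and 1.012 to 1.021 in CBP-ifKO, and without them the ranges overlap.

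A wider list of 83 further genes of the GABA system was examined, of which 71 were tested, 11 were too low and 1 symbol found no match. Of the 71, 10 (14.1%) were called lower and none higher, beside 4.99% and 1.40% of all genes, and their median was -0.11. Among them 7 of 39 further interneuron genes fell (17.9%), with a median of -0.18 over the 39. These were listed by name, and some, such as Cck and Calb2, are expressed by other neurons as well. Whole hippocampus does not show in which cells any of the 7 fell. Counted in either direction, the genes called were 16 and 6 without replicates 2 and 3 of Control, and 5 and 6 without replicates 2 and 3 of CBP-ifKO. The 16 hold Calb1, which was on the higher side in CBP-ifKO. Its log2 fold change was 0.23 (edgeR adjusted p 0.0789), and 0.17 to 0.30 over the 16 alternatives, of which 6 called it. Removal of trends on GC content and length moved Insyn1 from -0.39 to -0.13 and ended its call (edgeR adjusted p 0.235). It also ended the calls of Calb2 (-0.44, edgeR adjusted p 0.0601) and Elfn1 (-0.45, 0.0611), which moved less and were called where the replicate block was fitted with it (0.0039 and 0.0284). Library totals as the only scaling ended those of Kctd16 (0.0527) and Calb2 (0.0508).

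Sst, the peptide somatostatin of dendrite-targeting interneurons, was at 67.9, 86.5 and 74.7 CPM in Control and 56.9, 51.3 and 53.2 CPM in CBP-ifKO. The groups did not overlap (log2 fold change -0.51, standard error 0.084, edgeR adjusted p 0.00154), and Sst was called under all 16 alternatives. Elfn1, a synaptic protein known from somatostatin cells, was at 13.0 to 16.0 CPM in Control and 8.31 to 11.2 CPM in CBP-ifKO (-0.60, edgeR adjusted p 0.0173). Its call was lost without replicate 3 of Control (edgeR adjusted p 0.118) or replicates 2 or 3 of CBP-ifKO (0.111 and 0.103). The transcription factors of the same lineage, Lhx6, Sox6 (-0.13) and Satb1 (-0.04), were not called.

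Cck, a peptide of another basket cell class that pyramidal cells express as well, was at 110.4, 161.7 and 128.6 CPM in Control and 82.3, 101.0 and 78.2 CPM in CBP-ifKO. The Control libraries spread over a wide range that stayed above CBP-ifKO (-0.61, standard error 0.114, edgeR adjusted p 0.00383), and the call held under all 16 alternatives. Calb2, which encodes calretinin and in the mouse marks mossy cells of the hilus besides interneurons, was at 19.1, 22.8 and 26.8 CPM in Control and 13.0, 18.1 and 17.1 CPM in CBP-ifKO. Its groups came close to each other (-0.49, standard error 0.136, edgeR adjusted p 0.0382). The call was lost without Control replicate 3 (edgeR adjusted p 0.215) and without CBP-ifKO replicates 1 (0.127), 2 (0.0584) or 3 (0.0944).

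Sv2c, a synaptic vesicle protein, had the lowest log2 fold change among the genes called in either list, at 30.4 to 35.9 CPM in Control and 18.2 to 19.3 CPM in CBP-ifKO, or 56.9% of Control (-0.81, standard error 0.094, edgeR adjusted p 9.4e-05, called under all 16 alternatives). Nos1, the neuronal nitric oxide synthase, was at 92.2 to 113.0 CPM and 66.8 to 87.3 CPM (-0.41, edgeR adjusted p 0.0141), and its call was lost without replicates 1 or 3 of Control (0.0528 and 0.0744) or replicate 2 of CBP-ifKO (0.0942). Id2, an inhibitor of helix-loop-helix factors, was at 56.3 to 59.4 CPM and 42.1 to 47.9 CPM (-0.36, edgeR adjusted p 0.0064), and its call was lost without CBP-ifKO replicate 3 (0.0693).

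The peptide genes Npy and Vip were not called. Npy, carried by several interneuron classes, was at 17.1 to 27.6 CPM in Control and 21.1 to 29.5 CPM in CBP-ifKO (0.11, interval -0.20 to 0.43), and Vip, of interneurons that target other interneurons, at 14.5 to 17.1 CPM and 17.1 to 18.1 CPM (0.16, interval -0.06 to 0.39). The lowest log2 fold change of the 48 interneuron genes tested in both lists was that of Dlx5, a homeobox factor, named here after its value was seen. It had 15 to 17 counts in the Control libraries and 9 or 10 in the CBP-ifKO libraries, without overlap (-0.93, interval -1.63 to -0.23), and was not called (edgeR adjusted p 0.110).

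**Figure D5:**
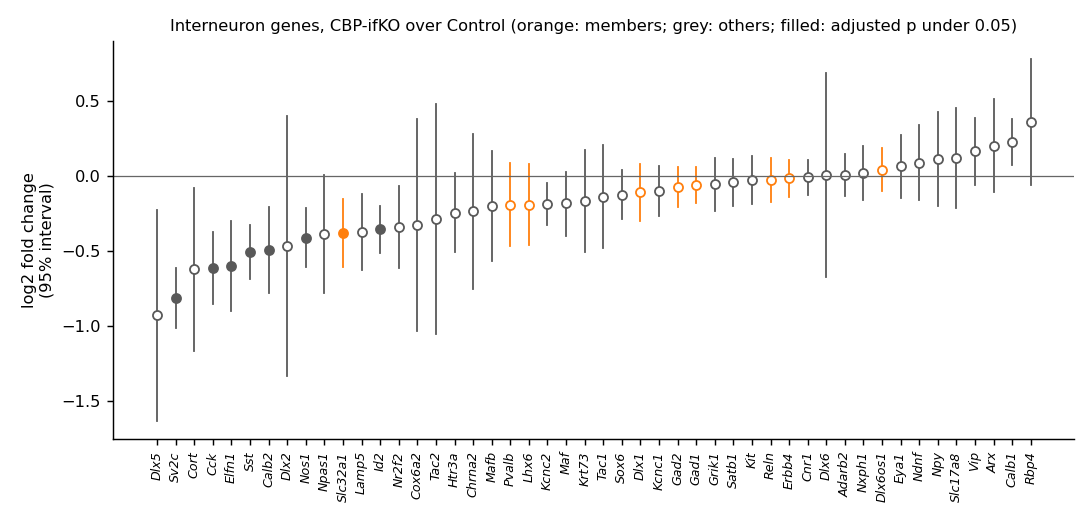
Log2 fold change with its 95% interval (y axis) of the 9 interneuron genes of the list (orange) and the 39 further interneuron genes tested (grey), ordered by value. The filled points, past an adjusted p of 0.05, are Slc32a1 at -0.38 and 7 others between -0.81 (Sv2c) and -0.36 (Id2), while Dlx5, the lowest at -0.93, is not among them and has an interval from -1.63 to -0.23.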

How the data were processed

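Single-end reads of 50 bp were sequenced from 6 libraries. The authors used Trim Galore 0.6.4, STAR 2.6.1 with GRCm38, and Rsubread over exons. The deposited table holds unnormalised counts for each gene, beside an exon length (bases) used here for CPM per kb. Whether counting used strand is not given in the sources used here. Groups and replicate numbers came from the sample titles. Symbols, positions, GC content and overlaps came from GENCODE M21 (55230 of 55471 identifiers matched).

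Counts were tested with edgeR 4.0.16 (quasi-likelihood F-test, TMM scaling, filterByExpr with minimum count 10 and minimum total 15, adjusted p under 0.05), in R 4.3.3. The study's tool, DESeq2 (here 1.42.0), and limma-voom (3.58.1) were alternatives, as were RLE, upper-quartile and total-count scaling, other filters, each library left out, a replicate block, and offsets for GC content and length (splines with 5 degrees of freedom). The fit was tested on simulated data. Levels are TMM-scaled CPM. Standard errors are the log2 fold change over the square root of F, and intervals use the fit's degrees of freedom. Total counts of 10199008 to 14950257, with a between-replicate coefficient of variation of 6.81%, leave genes near 20 CPM less precise. All members, the genes called in the wider list and 5 others were named by rule. Some genes that the lists and this rule held are not reported here. Other genes outside the 27, such as Sox6, Satb1, Kctd8, Dlx5 and the low subunits, were named after their values were seen. The members and lists were chosen with earlier results of these data known.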

Additional observations from a re-analysis of the deposited data

How the results depend on the processing

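Results were recomputed under 16 alternatives set down with the design. Gabra5 was called in all 16, Gabrd in 11 and Slc32a1 in 6, and each of the 3 stayed below 0 throughout. With each library left out in turn, all genes called ran from 498 to 1326 (1149 with all), members called from 1 to 4 (3), genes of the wider list called from 5 to 16 (10), the median of the GABA-A subunits from -0.158 to -0.112 and that of the interneuron genes from -0.088 to -0.038. The replicate numbers did not pair the samples (correlations of 0.0769, 0.0369 and 0.00216), and a replicate block gave 1210 genes and 4 members (Slc12a5 added). Offsets for GC and length added to the replicate block gave 1837 genes, 4 members and 16 genes of the wider list. These counts take both directions, and the 16 hold Calb1 and Lhfpl4, which had log2 fold changes above 0. The subunit median was -0.184 with such offsets, -0.185 with the block added, and -0.091 with library totals only, where the interneuron median was -0.031.

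Some uncalled members near 0 changed sign. Under RLE factors, upper-quartile factors, library totals and no filter, Gabrg1 was at 0.0013, 0.0074, 0.0407 and 0.0039. Under DESeq2 and the last 3 of these, Gphn was at 0.0024, 0.0062, 0.0387 and 0.0016. Library totals gave 0.0022 for Gabbr1, 0.0301 for Erbb4 and 0.0182 for Reln. GC and length offsets gave 0.0216 for Gabbr1, 0.0445 for Nlgn2, 0.0346 for Reln and -0.0104 for Dlx6os1, and with the block 0.0214, 0.0554, 0.0336 and -0.0112. With single libraries left out, Gabrg1 ran from -0.14 to 0.0911, Gphn from -0.0343 to 0.0316, Erbb4 from -0.0454 to 0.017 and Reln from -0.0818 to 0.0351. The cause was not tested. Genes at 10 to 25 CPM (Lhx6, Gabrd, Slc32a1, Pvalb, Dlx1) had standard errors of 0.09 to 0.131. The parts of depth and of spread between libraries in these were not separated.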
